A study of Mus musculus with 9 samples.

Results

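Kidney cortex of mice given cisplatin together with Yishen Jiangzhuo decoction (YSJZD), a herbal medicine, was compared with cortex of control mice on day 4. The comparison asks which genes still stood away from their normal level in mice that had received the decoction. It covered every gene of the deposited table and used 6 of the study's 9 libraries, the 3 labelled cisplatin+YSJZD (here the YSJZD group) and the 3 labelled normal control. All mice were wild type (WT), and the labels give neither strain, age nor dose. Control mice had been injected with saline into the peritoneum and given pure water into the stomach. Mice of the YSJZD group had been injected with cisplatin in the same way and given the decoction into the stomach. The other 3 libraries came from mice given cisplatin with pure water, and their values stand beside those of the YSJZD group because only this group separates the decoction from the drug. No group with the decoction and no cisplatin was analysed here.

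Cisplatin is a platinum drug against cancer that forms crosslinks in DNA. It enters the cells of the proximal tubule through transporters of their blood side, and these cells are the ones it injures most. Injured tubule cells are known to lose transporters and mitochondria, to switch on p53 and the stress kinases, and to secrete chemokines and complement. The surviving cells can lose and later regain their specialised genes.

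Library totals of the 6 libraries lay between 15029274 and 16657193 expected counts, and levels are given as CPM, which scales counts to the TMM-adjusted library total. In the YSJZD group 2694 of the 13954 genes tested (19.3%) were called against control, that is they passed a Benjamini-Hochberg adjusted p of 0.05 in edgeR's quasi-likelihood test. Of these, 1386 (9.93% of the tested genes) were higher and 1308 (9.37%) were lower. With a change of at least 2-fold, 851 were higher (6.1%) and 551 lower (3.95%). The total was 1607 without control replicate 1 and 1699 without control replicate 2. Higher genes made up 51.4% of the calls. Scaling by library totals without TMM raised this to 75.4% (2394 higher and 780 lower), since the median over all genes then stood at 0.20 in place of 0.01 on the log2 scale. Against the cisplatin group 4942 genes (35.4%) were called, 2426 higher (17.4%) and 2516 lower (18.0%) with the decoction. The labels do not say that the samples of a group came from separate mice, so the p-values reflect only how far these samples spread. Markers of the proximal tubule, the main cell type of cortex, summed to 54510.0 to 65199 CPM in control, and the podocyte gene Nphs1 was detected in every library. In bulk tissue, fewer cells of a type cannot be told apart from less RNA per cell.

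**Figure D1:**
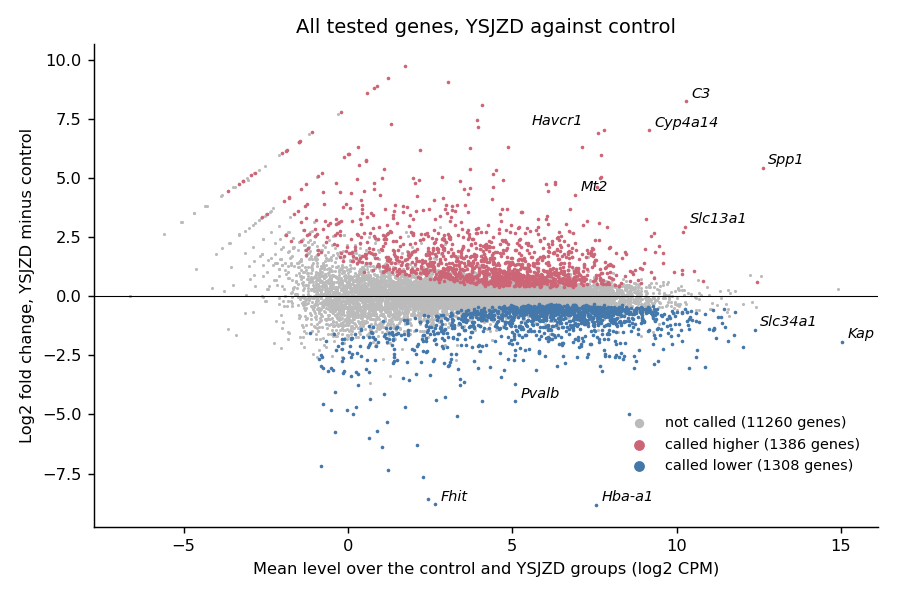
Log2 fold change of the YSJZD group against control (vertical axis) and mean level over both groups in log2 CPM (horizontal axis) for the 13954 tested genes, each a point, with levels under 0.01 CPM drawn at 0.01. The 1386 genes called higher and 1308 called lower are coloured, and C3, Spp1 and Hba-a1 stand far from 0 at a high mean level.

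Markers of tubular injury remained far above control. Kidney injury molecule Havcr1 (Entrez gene 171283), a receptor that lets injured tubule cells engulf debris, stood at 736, 149 and 425 CPM in the YSJZD libraries and at 3.06, 4.81 and 2.38 in control. Lcn2 (Entrez gene 16819), the gene of NGAL, a protein that scavenges iron, stood at 616, 228 and 326 CPM against 2.77, 1.53 and 5.56. Osteopontin Spp1 (Entrez gene 20750), a secreted adhesion protein of injured tubules, stood at 13823, 11162 and 11819 CPM against 298, 269.8 and 296. For each of these the groups did not overlap (over all tested genes 40.4% did not), and YSJZD replicate 2 was the lowest of its group. The log2 fold changes, given here with the standard error of the fit, were 7.0 ± 0.60, adjusted p = 8.81e-05 for Havcr1, 6.88 ± 0.68, adjusted p = 0.000173 for Lcn2 and 5.41 ± 0.36, adjusted p = 3.89e-05 for Spp1. The cisplatin libraries stood at 1267, 962 and 1041 CPM for Havcr1 and at 1077, 1859.8 and 3685 CPM for Lcn2, and the YSJZD group was lower for both (-1.32 ± 0.45, adjusted p = 0.0444 for Havcr1 and -2.5 ± 0.54, adjusted p = 0.0058 for Lcn2). Spp1 stood at 10869, 16397 and 27620.0 CPM with cisplatin, and the difference from it was not called (-0.58 ± 0.30, adjusted p = 0.154). Havcr1 was at a log2 fold change of 6.398 without YSJZD replicate 1. Lcn2 was at a log2 fold change of 7.50 without control replicate 3.

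Of 34 tubular injury genes tested, 24 rose and 0 fell, with a median log2 fold change of 2.12 against 0.01 over all genes. Against the cisplatin group 23 of the list were lower and 0 higher. Krt20, a keratin of injured epithelium, rose from 0.146, 0.219 and 0 to 46.2, 17.3 and 36.7 CPM and stood at 469.6, 313 and 1244 with cisplatin (8.06 ± 0.89, adjusted p = 0.000346 against control, -4.34 ± 0.56, adjusted p = 0.000459 against cisplatin). The lipid droplet gene Plin2 (3.27 ± 0.33, adjusted p = 0.000204), the tight junction gene Cldn4 (2.68 ± 0.32, adjusted p = 0.000514), the protease inhibitor gene Timp1 (6.16 ± 0.63, adjusted p = 0.00022), the hyaluronan receptor gene Cd44 (3.69 ± 0.45, adjusted p = 0.000576) and the progenitor factor gene Sox9 (5.03 ± 0.72, adjusted p = 0.00131) rose. Vcam1, an adhesion protein that marks tubule cells with incomplete repair, rose as well, from 5.82, 6.41 and 6.09 to 44.1, 59.8 and 113 CPM, with YSJZD replicate 3 highest. Its level with cisplatin was 47.8, 85.4 and 352 CPM (3.57 ± 0.70, adjusted p = 0.00661 against control, -1.16 ± 0.62, adjusted p = 0.169 against cisplatin). The intermediate filament gene Vim was not called against control, with 37.7, 25.6 and 30.2 CPM against 23.6, 26.8 and 28.5 (0.24 ± 0.18, adjusted p = 0.382), and stood at 242, 310.3 and 226 CPM with cisplatin (-3.06 ± 0.19, adjusted p = 4.18e-05 against that group). Krt20 was at a log2 fold change of 8.76 without control replicate 2 and 7.46 without control replicate 3. Timp1 was at a log2 fold change of 6.87 without control replicate 2. Sox9 was at a log2 fold change of 5.82 without control replicate 2.

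**Figure D2:**
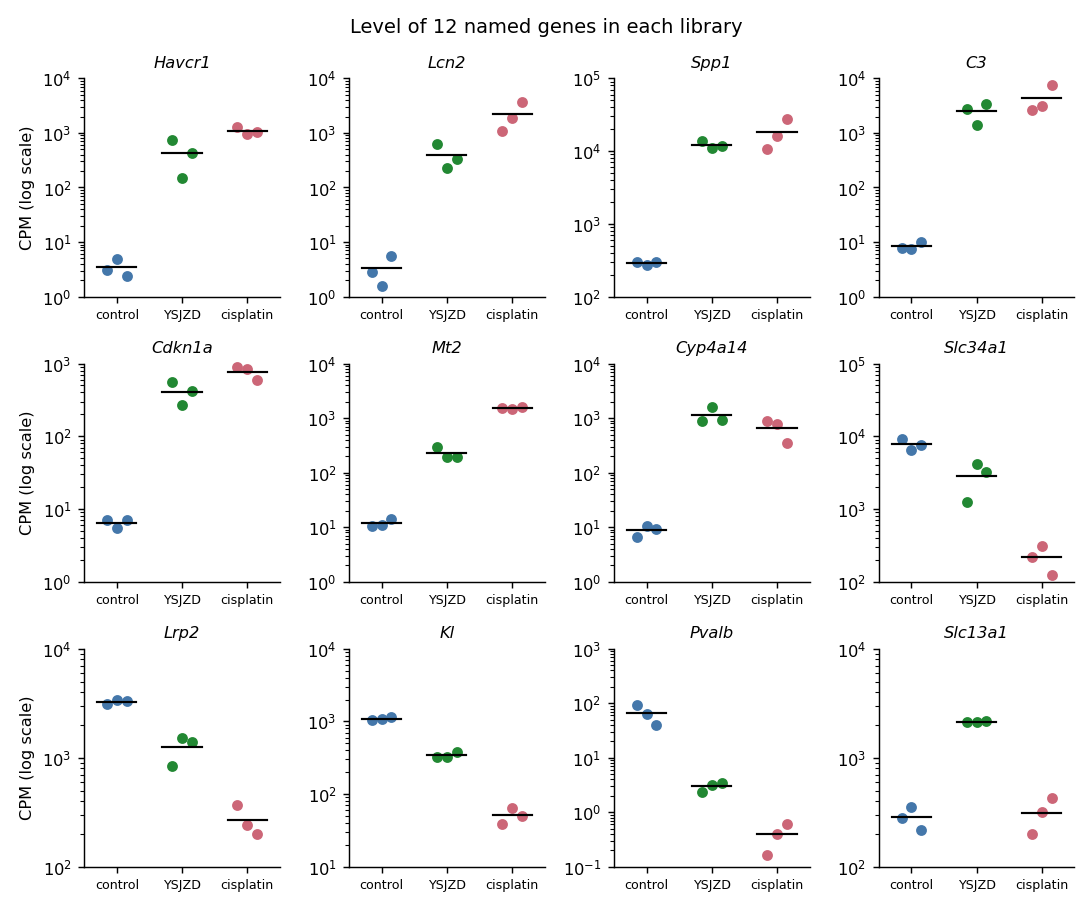
CPM on a log scale (vertical axes, which differ between panels) of 12 genes in each library of the control, YSJZD and cisplatin groups (horizontal axes), with a point per library and a line at the mean. In Havcr1, Lcn2 and Cdkn1a every YSJZD library lies between the control and cisplatin libraries, in Spp1 and C3 the YSJZD and cisplatin libraries overlap, and in Slc13a1 the YSJZD libraries lie above both other groups.

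The p53 targets that arrest the cell cycle stayed high. p53 is stabilised by DNA damage and drives genes of arrest, repair and death. The cell cycle inhibitor p21, encoded by Cdkn1a (Entrez gene 12575), stood at 553, 269 and 415 CPM in the YSJZD libraries against 7.06, 5.46 and 7.02 in control and 885, 834 and 598 with cisplatin. All 3 YSJZD libraries lay above control and below cisplatin (5.98 ± 0.32, adjusted p = 1.59e-05 against control, -0.91 ± 0.25, adjusted p = 0.019 against cisplatin). Mdm2 (Entrez gene 17246), the ligase that degrades p53, stood at 159, 137 and 181 CPM against 46.9, 45.2 and 47.2, and at 255, 254 and 226 with cisplatin (1.78 ± 0.14, adjusted p = 5.26e-05 against control, -0.62 ± 0.13, adjusted p = 0.00556 against cisplatin). The receptor gene Eda2r (6.27 ± 0.44, adjusted p = 3.91e-05), the AKT inhibitor gene Phlda3 (4.89 ± 0.37, adjusted p = 5.02e-05), the cyclin gene Ccng1 (2.01 ± 0.25, adjusted p = 0.000697) and the stress hormone gene Gdf15 (4.84 ± 0.40, adjusted p = 6.83e-05) rose. For Phlda3, Ccng1 and Gdf15 the difference from cisplatin was not called (-0.39 ± 0.29, -0.17 ± 0.25 and -0.75 ± 0.33). Of 30 targets of arrest and feedback, 18 rose and 1 fell (median 1.48). Against cisplatin 10 of the 30 were lower and 0 higher, while 18.0% of all tested genes were lower. Of 15 targets of the death arm, 10 rose and 0 fell (median 1.45), and against cisplatin 7 were lower and 0 higher. Among them the pro-death genes Bbc3 (21.4, 13.2 and 15.3 CPM against 1.31, 0.947 and 1.72, 3.63 ± 0.35, adjusted p = 0.000149) and Bax (118, 75.6 and 74.1 CPM against 32.7, 32.3 and 27.2, 1.54 ± 0.19, adjusted p = 0.000563) stood at 15.1, 13.8 and 25.9 and 89.0, 95.1 and 87.2 CPM with cisplatin. Neither was called against cisplatin (-0.13 ± 0.29, adjusted p = 0.748 and -0.02 ± 0.18, adjusted p = 0.951), whereas Pmaip1 was lower than with cisplatin (1.69 ± 0.17, adjusted p = 0.000197 against control, -1.55 ± 0.16, adjusted p = 0.00016 against cisplatin). Of 53 DNA repair genes 7 rose and 1 fell, a called share of 15.1% below the 19.3% of all tested genes, and 3 rose on leaving out control replicate 1 or YSJZD replicate 3 and 4 on leaving out control replicate 2 or 3 or YSJZD replicate 1. The alkyl-lesion repair gene Mgmt (2.65 ± 0.23, adjusted p = 9.45e-05), the excision repair nuclease gene Ercc5 (0.91 ± 0.17, adjusted p = 0.0052) and the bypass polymerase gene Polk (1.31 ± 0.25, adjusted p = 0.00578) were among those that rose.

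Metallothioneins, small proteins that bind zinc, copper and also platinum, remained higher than in control. They are switched on through metal response elements in their promoters, and the promoters of Mt1, Mt2 and, for the sterol genes described further on, Hmgcs1 are shown for the elements they hold. The windows run from 250 bases before to 50 bases after the gene start, on the plus strand, from RefSeq on GRCm38.p6. Capitals mark the metal response element cores TGCACNC and TGCGCNC in Mt1 (chr8:94178839-94179138) and Mt2 (chr8:94172368-94172667), searched on both strands.
Mt1: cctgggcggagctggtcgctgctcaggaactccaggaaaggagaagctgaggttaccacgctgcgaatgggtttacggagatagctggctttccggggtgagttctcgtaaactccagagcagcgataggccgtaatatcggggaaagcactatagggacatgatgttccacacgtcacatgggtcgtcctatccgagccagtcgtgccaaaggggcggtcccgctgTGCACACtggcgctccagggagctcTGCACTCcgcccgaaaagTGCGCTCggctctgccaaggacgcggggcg
Mt2: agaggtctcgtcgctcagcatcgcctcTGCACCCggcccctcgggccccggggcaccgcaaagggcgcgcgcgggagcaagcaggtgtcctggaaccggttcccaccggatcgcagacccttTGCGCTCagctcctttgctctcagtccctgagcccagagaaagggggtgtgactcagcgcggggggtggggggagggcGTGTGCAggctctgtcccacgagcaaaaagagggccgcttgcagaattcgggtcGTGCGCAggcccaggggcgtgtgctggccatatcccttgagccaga
The cores occurred 3 times in Mt1 and 4 times in Mt2, where an antioxidant response element core (TGACNNNGC) and an AP-1 site (TGANTCA) overlapped at base 172 and touched none of them. Of 32851 such windows 25.7% held at least 1 metal response core and 1.97% held 3 or more, 12.4% held TGACNNNGC and 7.81% TGANTCA. Mt1 (Entrez gene 17748) stood at 559, 392 and 295 CPM in the YSJZD libraries, 60.0, 49.5 and 53.4 in control and 2716, 2501 and 3126 with cisplatin. Mt2 (Entrez gene 17750) stood at 298, 189.9 and 195, 10.3, 11.001 and 13.8 and 1499.9, 1471 and 1614 CPM in the same order. No library of any group overlapped those of another for either gene. Against control the changes were 2.94 ± 0.24, adjusted p = 6.72e-05 for Mt1 and 4.28 ± 0.22, adjusted p = 1.59e-05 for Mt2, and against cisplatin -2.74 ± 0.23, adjusted p = 6.07e-05 and -2.75 ± 0.21, adjusted p = 4.54e-05. The authors' counting divides reads between these close paralogs, so each value is less certain than its error.

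Several carriers of cisplatin fell. The organic cation transporter Slc22a2 (Entrez gene 20518), which takes the drug up from blood, stood at 336, 343 and 290.1 CPM against 611, 589 and 563 in control and 63.2, 86.4 and 126 with cisplatin (-0.86 ± 0.22, adjusted p = 0.0205 against control, 1.81 ± 0.22, adjusted p = 0.00035 against cisplatin). The copper transporter gene Slc31a1 (-0.66 ± 0.15, adjusted p = 0.0139) and the exporter gene Slc47a1 (-0.74 ± 0.13, adjusted p = 0.00431) fell, as did 2 enzymes that process glutathione conjugates of the drug, Ggt1 (-1.02 ± 0.17, adjusted p = 0.00269) and Dpep1 (-2.01 ± 0.30, adjusted p = 0.00165). All of these were higher than with cisplatin, by 0.68 ± 0.15, 1.37 ± 0.13, 1.86 ± 0.17 and 1.46 ± 0.30. The drug efflux pump gene Abcb1b rose from 4.73, 4.30 and 3.31 to 44.1, 26.8 and 64.8 CPM (3.46 ± 0.33, adjusted p = 0.000156). Slc22a2 was not called without control replicate 1 or 2 or YSJZD replicate 1 or 3 (-0.89 to -0.79, adjusted p from 0.0534 to 0.0752). In the whole list of platinum carriers and metal binders, 7 of 25 were called higher and 7 lower. Their median of -0.16 turned to 0.03 with libraries scaled by totals.

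Immediate early and AP-1 genes, which stress kinases switch on within minutes, were still raised. Junb stood at 77.7, 69.9 and 64.3 CPM against 14.0, 14.3 and 16.0 (2.26 ± 0.15, adjusted p = 3.89e-05) and Egr1 at 71.2, 38.1 and 48.7 CPM against 4.95, 3.72 and 3.51 (3.70 ± 0.25, adjusted p = 3.91e-05). Both lay below the cisplatin libraries, which held 171, 191 and 227 and 189.6, 203 and 234 CPM. Atf3 (3.61 ± 0.39, adjusted p = 0.000314), Maff (3.54 ± 0.27, adjusted p = 4.57e-05) and Fos (2.96 ± 0.35, adjusted p = 0.000487) rose too. The AP-1 subunit gene Fosl1 had 0 counts in control and 5.49, 2.23 and 2.61 CPM in the YSJZD libraries, at least 49.6-fold higher with control set at 3 counts for the whole group. Of 33 such genes 24 rose and 0 fell (median 1.43), and 28 were lower than with cisplatin.

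TNF signalling, which the study's title names, runs from the cytokine through its receptors to NF-kB and its target genes. The ligand was scarce. Tnf (Entrez gene 21926) stood at 0.409, 0.459 and 0.652 CPM in the YSJZD libraries and 0.146, 0 and 0.0662 in control, 25 counts against 3, a ratio of 7.21 (95% exact counting interval 2.20 to 37.3), and was not called (adjusted p = 0.0612). The cisplatin libraries held 95 counts of Tnf, a ratio of 25.9 over control (95% exact counting interval 8.60 to 128). Receptor 1, Tnfrsf1a (Entrez gene 21937), stood at 173, 126 and 116 CPM against 46.6, 35.0 and 46.7 in control and 156, 144 and 178 with cisplatin (1.69 ± 0.19, adjusted p = 0.000364 against control, -0.21 ± 0.18, adjusted p = 0.411 against cisplatin). The YSJZD libraries lay above control, and 1 of them within the range of the cisplatin libraries. Receptor 2, Tnfrsf1b (Entrez gene 21938), which leukocytes and endothelium carry, stood at 12.3, 6.56 and 9.97 CPM against 2.77, 2.70 and 2.05 and 26.6, 52.8 and 57.0 (1.94 ± 0.34, adjusted p = 0.0038 against control, -2.24 ± 0.31, adjusted p = 0.000669 against cisplatin).

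Most NF-kB subunits and inhibitors rose. Of the subunits, Nfkb2 (2.09 ± 0.23, adjusted p = 0.00036), Relb (2.65 ± 0.33, adjusted p = 0.000671), Rela (1.00 ± 0.25, adjusted p = 0.0218) and Nfkb1 (0.73 ± 0.23, adjusted p = 0.0499) rose. The kinase gene Chuk, which encodes IKK alpha, fell (-0.67 ± 0.14, adjusted p = 0.00866). The feedback inhibitors Nfkbia (43.3, 61.2 and 56.6 CPM against 20.2, 16.3 and 18.7, 1.54 ± 0.23, adjusted p = 0.00158) and Tnfaip3 (2.12 ± 0.29, adjusted p = 0.00096) rose, as did the nuclear regulators Nfkbiz (2.69 ± 0.24, adjusted p = 0.000109) and Bcl3 (2.20 ± 0.18, adjusted p = 6.72e-05). Subunits and inhibitors thus rose side by side. Against the cisplatin group some were called lower and others were not called, with changes that overlapped between called and uncalled genes. Nfkbia, Tnfaip3, Nfkbiz, Rela and Nfkb1 were lower than with cisplatin (-1.26 ± 0.22, -1.33 ± 0.26, -0.66 ± 0.22, -1.01 ± 0.25 and -0.79 ± 0.23), while Nfkb2, Relb and Bcl3 were not called against it (-0.18 ± 0.22, adjusted p = 0.555, -0.79 ± 0.30, adjusted p = 0.0628 and 0.27 ± 0.17, adjusted p = 0.236). Of 16 subunits and inhibitors 12 rose and 1 fell, and 7 rose on leaving out control replicate 1, 2 or 3. Against the cisplatin group 8 were lower and 0 higher, and 3 were lower on leaving out YSJZD replicate 2. Rela was not called without control replicate 1 or 2 or YSJZD replicate 1 (0.87 to 1.01, adjusted p from 0.0712 to 0.0879). Nfkb1 was not called without control replicate 1, 2 or 3, cisplatin replicate 1 or YSJZD replicate 1, 2 or 3 (0.61 to 0.84, adjusted p from 0.0533 to 0.153).

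Among the targets, the adhesion gene Icam1 (Entrez gene 15894) stood at 133, 145 and 149 CPM against 24.2, 26.8 and 24.5 in control and 134, 153 and 219 with cisplatin. The YSJZD libraries overlapped the cisplatin libraries and not control (2.5 ± 0.19, adjusted p = 4.36e-05 against control, -0.24 ± 0.17, adjusted p = 0.306 against cisplatin). The cytokine gene Lif (4.86 ± 0.36, adjusted p = 4.06e-05), the signal inhibitor gene Socs3 (3.87 ± 0.34, adjusted p = 0.000107) and the transcription factor gene Cebpb (2.77 ± 0.23, adjusted p = 7.44e-05) rose. Of 98 genes of TNF signalling 39 rose and 2 fell, with a median of 0.65, or 0.57 with genes at 0 counts in control held at their bound. Against cisplatin 40 of them were lower and 3 higher.

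**Figure D3:**
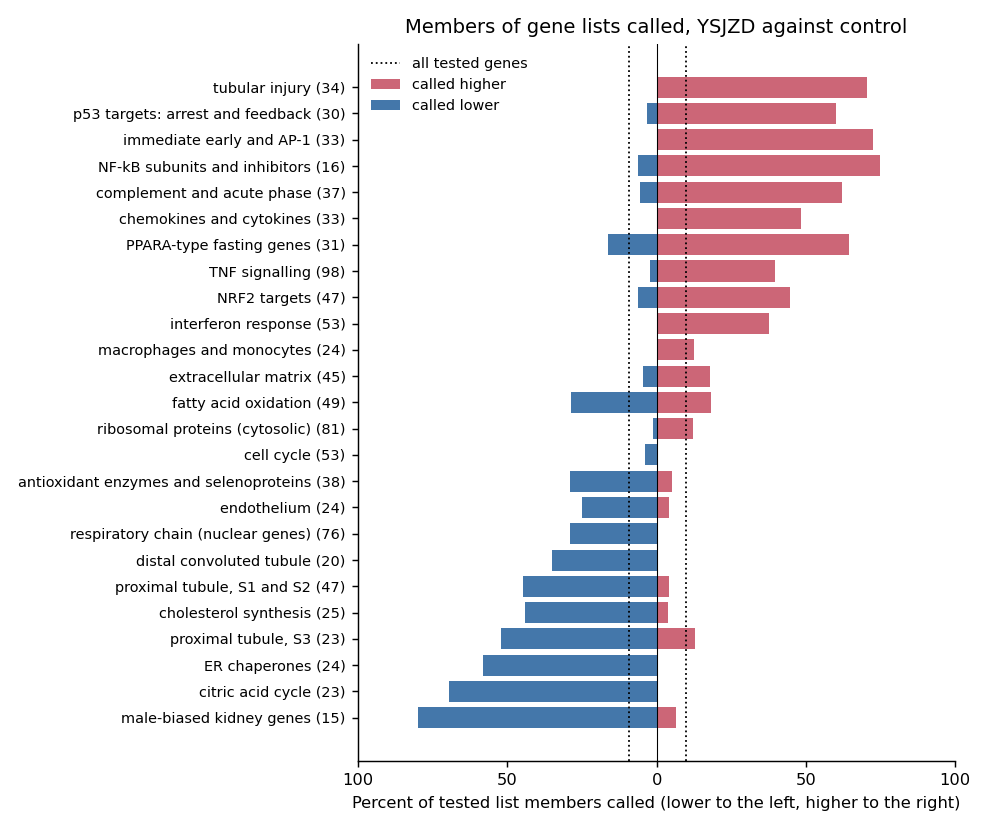
Share of the tested members of 25 gene lists (rows, with the number tested in brackets) that was called higher (to the right) or lower (to the left) in the YSJZD group against control, in percent. Dotted lines give the shares over all tested genes, 9.93% and 9.37%. Tubular injury, p53, immediate early and NF-kB genes reach far to the right, and male-biased, citric acid cycle and ER chaperone genes far to the left.

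Chemokines and complement were among the genes furthest above control. The neutrophil attractant Cxcl1 (Entrez gene 14825) stood at 21.6, 41.7 and 29.1 CPM against 0.291, 0.219 and 0.132 in control and 20.5, 51.3 and 109 with cisplatin (7.13 ± 0.78, adjusted p = 0.000334 against control, -0.97 ± 0.48, adjusted p = 0.138 against cisplatin). The monocyte attractant Ccl2 (Entrez gene 20296) stood at 1.46, 1.25 and 4.80 CPM against 0.146, 0 and 0.397 and 8.84, 10.96 and 10.6 (3.70 ± 0.77, adjusted p = 0.00894 against control, -2.01 ± 0.57, adjusted p = 0.0202 against cisplatin), and YSJZD replicate 3 was the highest of its group. The chemokine genes Cxcl16 (1.89 ± 0.23, adjusted p = 0.000551) and Ccl20 rose, the latter from 1 count over the control libraries to 56, a ratio of 48.4 (95% exact counting interval 8.34 to 1946). The receptor antagonist gene Il1rn likewise went from 1 count to 245, a ratio of 212 (95% exact counting interval 37.7 to 8402). The interleukin genes Il1b and Il6 gave little signal. Il1b stood at 0.817, 0.262 and 0.712 CPM against 0.582, 0.583 and 0.132 (0.49 ± 0.67, adjusted p = 0.662) and 2.44, 4.68 and 7.26 with cisplatin (-2.97 ± 0.59, adjusted p = 0.00394 against that group), and Il6 stayed below the filter with at most 0.117 CPM in a YSJZD library. Of 33 chemokine and cytokine genes 16 rose and 0 fell, with a median of 1.89, or 1.505 with genes at 0 counts in control held at their bound. The single control count of Ccl20 and of Il1rn was in control replicate 2. Ccl2 was at a log2 fold change of 4.97 without control replicate 3 and 2.81 without YSJZD replicate 3.

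Complement component C3 (Entrez gene 12266), the central protein of the cascade, stood at 2767, 1413 and 3330.1 CPM in the YSJZD libraries against 7.64, 7.50 and 9.87 in control and 2589.5, 3108 and 7711 with cisplatin. Every YSJZD library lay far above control, and the difference from cisplatin was not called (8.23 ± 0.58, adjusted p = 3.91e-05 against control, -0.84 ± 0.42, adjusted p = 0.145 against cisplatin). The protease inhibitor gene Serpina3n (7.44 ± 0.57, adjusted p = 5.08e-05) and the fibrinogen genes Fga (4.63 ± 0.44, adjusted p = 0.000146) and Fgg (6.28 ± 0.79, adjusted p = 0.000639) rose, and all were lower than with cisplatin (-2.90 ± 0.35, -1.34 ± 0.38 and -2.22 ± 0.57). The complement protease gene Cfi rose from 1.31, 1.24 and 0.728 to 41.2, 21.5 and 70.3 CPM (5.34 ± 0.66, adjusted p = 0.000576) and stood at 15.4, 14.7 and 47.9 with cisplatin (0.77 ± 0.50, adjusted p = 0.254 against that group). Saa1, an acute-phase gene with close paralogs, went from 1 count over the control libraries to 826, a ratio of 714 (95% exact counting interval 128 to 28245). Of 37 complement and acute-phase genes 23 rose and 2 fell (median 2.49). The protease inhibitor gene A2m (-4.39 ± 0.71, adjusted p = 0.00255) and the complement gene C4a (-3.63 ± 0.77, adjusted p = 0.00945) were those that fell, both with widely spread control libraries (13.2, 2.62 and 20.5 and 41.8, 7.07 and 15.8 CPM). The single control count of Saa1 was in control replicate 2. A2m was at a log2 fold change of -3.78 without control replicate 3. C4a was at a log2 fold change of -2.72 without control replicate 1.

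Part of the interferon response genes and most class II genes rose. Of 53 interferon response genes 20 rose and 0 fell (median 0.75), and 47 were lower than with cisplatin, where the median was 2.59. The peptide transporter gene Tap1 (1.99 ± 0.18, adjusted p = 0.000108) and the regulators Irf1 (1.85 ± 0.18, adjusted p = 0.000193) and Irf9 (0.82 ± 0.10, adjusted p = 0.000719) rose, and Irf1 was not called against cisplatin (0.03 ± 0.17, adjusted p = 0.903). Of 10 class II genes 6 rose and 0 fell, with a median of 1.71 against 1.77 with cisplatin. The peptide loading genes H2-DMa (2.13 ± 0.19, adjusted p = 9.51e-05) and H2-DMb1 (1.96 ± 0.21, adjusted p = 0.000249) rose. Ciita, the master switch of class II genes, stood at 9.28, 8.73 and 7.47 CPM against 2.40, 2.11 and 3.05 in control and 0.922, 1.199 and 2.11 with cisplatin, above all libraries of both other groups (1.75 ± 0.32, adjusted p = 0.00497 against control, 2.59 ± 0.34, adjusted p = 0.000468 against cisplatin).

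Of 24 macrophage and monocyte markers 3 rose (12.5%, beside 9.93% of all tested genes) and 0 fell, and 17 were lower than with cisplatin. Their summed level, Cd14 included, was 203 to 275 CPM in control, 532 to 854 in the YSJZD group and 1513 to 3428 with cisplatin. Without Cd14, left out after its values were seen, the sum was 193 to 262 CPM in control, 208 to 268 in the YSJZD group and 585 to 2736 with cisplatin, so that the YSJZD and control libraries overlapped. The endotoxin receptor gene Cd14, which tubule cells can also express, rose from 13.4, 10.6 and 12.8 to 606, 344 and 264 CPM (5.05 ± 0.59, adjusted p = 0.000462), and the lysosomal gene Cd68 from 4.58, 3.93 and 3.77 to 22.8, 9.12 and 11.3 CPM (1.82 ± 0.32, adjusted p = 0.0037). Adgre1 and Csf1r, which define resident macrophages, were not called, with 2.10, 1.97 and 2.02 against 5.31, 2.33 and 3.18 CPM (-0.83 ± 0.64, adjusted p = 0.412) and 38.6, 27.5 and 47.4 against 73.3, 57.1 and 73.1 CPM (-0.84 ± 0.42, adjusted p = 0.192). Of 15 neutrophil markers 5 rose and 0 fell, and 1 rose on leaving out control replicate 1 or YSJZD replicate 1, 3 on leaving out control replicate 2 or YSJZD replicate 2 and 2 on leaving out control replicate 3. Without the histamine enzyme gene Hdc, which stood at 2.98, 416 and 3.64 CPM in control and 6.42, 141 and 119 in the YSJZD libraries, these markers summed to 2.05 to 2.91 CPM in control, 5.16 to 12.1 in the YSJZD group and 59.8 to 195 with cisplatin, a sum chosen after the values of Hdc were seen. S100a9 went from 2 to 73 counts, a ratio of 31.6 (95% exact counting interval 8.43 to 266), and S100a8 was not called (0.876, 0.984 and 0.475 against 0.0728, 0.219 and 0.199 CPM, 2.19 ± 0.71, adjusted p = 0.0566). Among lymphocyte markers none of 4 of T and NK cells was called, and they summed to 2.25 to 12.7 CPM in control and 1.97 to 6.29 in the YSJZD group. The leukocyte part in the chemokine, complement and class II values was not tested.

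Cell death genes gave a mixed picture. The initiator caspase gene Casp8 (Entrez gene 12370) stood at 55.1, 63.8 and 61.4 CPM against 35.9, 37.8 and 35.6 in control and 88.7, 81.2 and 85.1 with cisplatin, between the groups without overlap (0.72 ± 0.11, adjusted p = 0.00192 against control, -0.50 ± 0.11, adjusted p = 0.00631 against cisplatin). The BH3 gene Bcl2l11 (1.302 ± 0.18, adjusted p = 0.00116) and the survival genes Bcl2l1 (1.23 ± 0.18, adjusted p = 0.00158) and Birc3 (2.43 ± 0.39, adjusted p = 0.00248) rose, and Bcl2 was not called (8.70, 12.7 and 14.4 against 12.2, 14.6 and 13.3 CPM, -0.17 ± 0.21, adjusted p = 0.617). Of 34 apoptosis genes 7 rose and 2 fell, a called share of 26.5% beside 19.3% of all tested genes. The members that rose thus included genes that promote death and genes that promote survival. In necroptosis, the pore-forming Mlkl stood at 5.31, 4.92 and 5.40 CPM against 1.09, 1.09 and 1.19 and 25.2, 21.8 and 40.8 with cisplatin (2.20 ± 0.28, adjusted p = 0.000678 against control, -2.49 ± 0.24, adjusted p = 0.000111 against cisplatin), and its kinase Ripk3 rose (1.85 ± 0.37, adjusted p = 0.0071). The pyroptosis pore gene Gsdmd (2.86, 3.94 and 4.80 CPM against 1.53, 2.04 and 2.25, 0.99 ± 0.30, adjusted p = 0.0455), the inflammatory caspase gene Casp4 (2.69 ± 0.58, adjusted p = 0.01) and the redox regulator gene Txnip (1.61 ± 0.27, adjusted p = 0.00291) rose. Of 17 genes of both pathways 5 rose and 0 fell, and 12 were lower than with cisplatin. Gsdmd was not called without control replicate 1, 2 or 3, cisplatin replicate 2 or YSJZD replicate 2 or 3 (0.81 to 1.11, adjusted p from 0.06 to 0.149).

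Many targets of NRF2, the factor that senses electrophiles, rose. The quinone reductase Nqo1 (Entrez gene 18104) stood at 142, 97.5 and 74.2 CPM against 35.2, 31.9 and 29.2 in control and 99.3, 63.5 and 80.8 with cisplatin (1.70 ± 0.24, adjusted p = 0.00133 against control, 0.37 ± 0.23, adjusted p = 0.252 against cisplatin). Haem oxygenase Hmox1 (Entrez gene 15368) stood at 254, 209.6 and 123 CPM against 69.3, 59.4 and 68.3 and 328, 164 and 208 (1.57 ± 0.30, adjusted p = 0.00538 against control, -0.25 ± 0.29, adjusted p = 0.524 against cisplatin). YSJZD replicate 1 was highest in both. The glutathione transferase gene Mgst1 (2.70 ± 0.21, adjusted p = 6.06e-05), the aldo-keto reductase gene Akr1b8 (2.84 ± 0.32, adjusted p = 0.000396) and the carbonyl reductase gene Cbr1 (1.85 ± 0.22, adjusted p = 0.000518) rose. Gclm, a subunit of the rate-limiting enzyme of glutathione synthesis, was not called against control (372, 349 and 310.4 against 341, 319 and 304 CPM, 0.10 ± 0.18, adjusted p = 0.762) and was higher than with cisplatin (0.55 ± 0.18, adjusted p = 0.0389). Malic enzyme Me1, also an NRF2 target, fell (-1.23 ± 0.16, adjusted p = 0.000816). Of 47 NRF2 targets 21 rose and 3 fell (median 0.61), and 1 fell on leaving out control replicate 1 or YSJZD replicate 3.

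Among antioxidant enzymes, catalase Cat stood at 915, 1174 and 915 CPM against 1559.6, 1469.7 and 1341 in control and 422, 398 and 459 with cisplatin (-0.54 ± 0.15, adjusted p = 0.0323 against control, 1.23 ± 0.15, adjusted p = 0.000372 against cisplatin). The cytosolic superoxide dismutase Sod1 stood at 382, 525 and 482 CPM against 853, 687 and 595 (-0.62 ± 0.18, adjusted p = 0.0371), and the mitochondrial Sod2 at 184, 255 and 243 against 446, 406 and 368 (-0.84 ± 0.20, adjusted p = 0.0156). In all of these the YSJZD libraries lay below control. The plasma selenium carrier gene Selenop (-1.33 ± 0.21, adjusted p = 0.00242) and the selenoprotein reductase gene Msrb1 (-0.83 ± 0.18, adjusted p = 0.00941) fell, and Msrb1 was also lower than with cisplatin (-0.72 ± 0.17, adjusted p = 0.0106). The plasma glutathione peroxidase Gpx3, made mainly by the proximal tubule, was not called (37791, 33845 and 30860.0 against 37244, 26076 and 19088 CPM, 0.31 ± 0.26, adjusted p = 0.438). Of 38 such genes 2 rose and 11 fell (median -0.30), and 3 fell on leaving out control replicate 1, 4 on leaving out control replicate 2 or YSJZD replicate 3, 5 on leaving out YSJZD replicate 1 and 7 on leaving out YSJZD replicate 2. With libraries scaled by totals 5 rose and 5 fell (median -0.10), so the excess of lower calls was not seen under that scaling. Cat was not called without control replicate 1 or 2 or YSJZD replicate 1 or 3 (-0.53 to -0.48, adjusted p from 0.0908 to 0.114). Sod1 was not called without control replicate 1 or 2 or YSJZD replicate 1 or 3 (-0.65 to -0.47, adjusted p from 0.0825 to 0.13). Sod2 was not called without control replicate 1 or YSJZD replicate 1 (-0.77 to -0.71, adjusted p from 0.0551 to 0.061).

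Many transporters of the proximal tubule fell, though to levels above those with cisplatin. The early segments S1 and S2 reabsorb most filtered solute. Megalin Lrp2 (Entrez gene 14725), their receptor for filtered protein, stood at 840.1, 1509.5 and 1407 CPM against 3083, 3413 and 3290.3 in control and 372, 240.1 and 201 with cisplatin (-1.38 ± 0.27, adjusted p = 0.00647 against control, 2.21 ± 0.28, adjusted p = 0.000384 against cisplatin). The organic anion transporter Slc22a6 (Entrez gene 18399) stood at 953, 1230.5 and 936 CPM against 2180.3, 2410.3 and 2123 and 152, 182 and 94.0 (-1.11 ± 0.23, adjusted p = 0.00882 against control, 2.87 ± 0.25, adjusted p = 6.07e-05 against cisplatin). Lrp2 and Slc22a6 thus stood below control and above cisplatin in every library. The phosphate cotransporter Slc34a1 (Entrez gene 20505) stood at 1255, 4113 and 3203 CPM against 9154, 6548 and 7475 and 220.5, 313 and 122 (-1.44 ± 0.43, adjusted p = 0.0421 against control, 3.71 ± 0.47, adjusted p = 0.000406 against cisplatin). The glucose cotransporter gene Slc5a2 (261, 389 and 274 CPM against 631, 492 and 427) fell as well (-0.75 ± 0.21, adjusted p = 0.0348) and stood at 76.9, 85.1 and 109 CPM with cisplatin. In each of these the YSJZD libraries lay between the other groups without overlap. The metabolic enzyme genes Ass1 (-1.77 ± 0.21, adjusted p = 0.000489) and Cyp4b1 (-1.66 ± 0.20, adjusted p = 0.000531) fell too. Of 47 S1 and S2 genes 2 rose and 21 fell (median -0.67, with cisplatin -1.88), and 36 were higher than with cisplatin. With libraries scaled by totals 2 rose and 14 fell (median -0.48), and 14 fell on leaving out control replicate 2. Slc34a1 was not called without control replicate 1, 2 or 3, cisplatin replicate 1 or YSJZD replicate 1 or 3 (-1.54 to -1.08, adjusted p from 0.0548 to 0.122). Slc5a2 was not called without control replicate 1 or 2 or YSJZD replicate 1 or 3 (-0.78 to -0.58, adjusted p from 0.0771 to 0.128).

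Many genes of the straight segment S3, in the outer stripe of the medulla, and of those that male mice express more also fell. The cystine transporter Slc7a13 stood at 90.7, 243 and 206 CPM against 1350.5, 1154 and 1077 in control and 3.85, 3.20 and 3.79 with cisplatin (-2.73 ± 0.31, adjusted p = 0.000412 against control, 5.64 ± 0.37, adjusted p = 4.18e-05 against cisplatin). The acyl-CoA synthetase gene Acsm3 (-3.04 ± 0.37, adjusted p = 0.000563) and the RING finger gene Rnf24 (-3.17 ± 0.38, adjusted p = 0.000514) fell, while the amino acid transporter gene Slc6a18 rose (1347, 1227 and 1031 CPM against 384, 289 and 355, 1.81 ± 0.18, adjusted p = 0.000169) and was not called against cisplatin (0.07 ± 0.17, adjusted p = 0.781). Of 23 S3 genes 3 rose and 12 fell (median -1.13). Of 15 male-biased genes 1 rose and 12 fell (median -1.93, with cisplatin -4.17). The androgen-regulated gene Kap, the most abundant in control, stood at 11088, 21527 and 9379.9 CPM against 56105, 61121 and 42347 (-1.93 ± 0.41, adjusted p = 0.00929), which was 0.996% to 2.18% of all counts against 4.05% to 5.58%. Ornithine decarboxylase Odc1, an androgen-regulated enzyme of polyamine synthesis, fell (-3.01 ± 0.31, adjusted p = 0.00021) and was not called against cisplatin (-0.17 ± 0.28, adjusted p = 0.671).

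In the distal nephron some segment genes fell and others were not called. The growth factor gene Egf (Entrez gene 13645) of the thick ascending limb stood at 207, 605 and 476 CPM against 1223, 922 and 1681 in control and 47.6, 19.1 and 30.4 with cisplatin (-1.57 ± 0.42, adjusted p = 0.0264 against control, 3.73 ± 0.46, adjusted p = 0.000353 against cisplatin). Uromodulin Umod, the main urinary protein of the same segment, was not called (1466, 2592 and 2582 against 4189.9, 2553 and 5119 CPM, -0.84 ± 0.40, adjusted p = 0.174), and 2 of 3 YSJZD libraries lay within the control range. The junction genes Cldn10 (-1.11 ± 0.17, adjusted p = 0.00228) and Cldn16 (23.5, 20.4 and 18.8 CPM against 9.10, 7.72 and 9.14, 1.27 ± 0.22, adjusted p = 0.00363) went in opposite directions, and Cldn16 was higher than with cisplatin as well (1.16 ± 0.22, adjusted p = 0.00315). Of 20 genes of the segment 3 rose and 3 fell, and 1 rose on leaving out control replicate 1 or 2 or YSJZD replicate 1 or 3 and 1 fell on leaving out control replicate 1 or 3 or YSJZD replicate 3. The called share of that list was 30.0%, beside 19.3% of all tested genes, and only Cldn10 and Cldn16 are given here as standing on opposite sides of control. In the distal convoluted tubule the sodium chloride cotransporter Slc12a3 stood at 114, 93.4 and 109 CPM against 332, 343 and 277 and 4.34, 8.73 and 22.7 (-1.59 ± 0.43, adjusted p = 0.0287 against control, 3.15 ± 0.47, adjusted p = 0.000896 against cisplatin). Parvalbumin Pvalb, a calcium buffer of the early part of that tubule, stood at 2.39, 3.15 and 3.44 CPM against 92.3, 63.5 and 40.4 and 0.163, 0.400 and 0.621 (-4.45 ± 0.36, adjusted p = 6.60e-05 against control, 2.93 ± 0.46, adjusted p = 0.00127 against cisplatin). The magnesium channel gene Trpm6 fell (-1.43 ± 0.21, adjusted p = 0.00158) and was not called against cisplatin (0.04 ± 0.21, adjusted p = 0.904). Of 20 genes of the segment 0 rose and 7 fell, and 4 fell on leaving out control replicate 1 or 2 or YSJZD replicate 3. The water channel gene Aqp2 of the collecting duct was not called (381, 254 and 134 against 132, 89.0 and 233 CPM, 0.76 ± 0.42, adjusted p = 0.239), nor was Nphs1 (13.1, 11.9 and 10.97 against 18.7, 14.9 and 13.9 CPM, -0.40 ± 0.19, adjusted p = 0.177). Egf was not called without control replicate 1 or 3 or YSJZD replicate 1 or 3 (-1.65 to -1.24, adjusted p from 0.0631 to 0.0873). Slc12a3 was not called without control replicate 1, 2 or 3 or YSJZD replicate 1, 2 or 3 (-1.68 to -1.51, adjusted p from 0.0545 to 0.0832).

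Genes of phosphate and vitamin D handling moved in both directions. Kl (Entrez gene 16591), which encodes Klotho, the co-receptor for the phosphate hormone FGF23, stood at 326, 324 and 382 CPM against 1029.8, 1089 and 1138 in control and 39.0, 65.0 and 50.1 with cisplatin (-1.66 ± 0.19, adjusted p = 0.00037 against control, 2.74 ± 0.19, adjusted p = 4.18e-05 against cisplatin). The vitamin D degrading enzyme Cyp24a1 stood at 388, 86.2 and 291 CPM against 13.2, 52.2 and 29.7 and 150.1, 490.1 and 212 (3.01 ± 0.67, adjusted p = 0.0113 against control, -0.15 ± 0.61, adjusted p = 0.867 against cisplatin), with YSJZD replicate 2 well below the other 2. The activating enzyme Cyp27b1 stood at 18.3, 10.6 and 21.3 CPM against 2.62, 11.6 and 4.83 and 81.3, 89.0 and 76.8, and 1 YSJZD library lay within the control range (1.404 ± 0.43, adjusted p = 0.0467 against control, -2.30 ± 0.42, adjusted p = 0.00259 against cisplatin). Klotho thus stood between the other groups. The phosphate transporter gene Slc20a1 rose (1.86 ± 0.25, adjusted p = 0.001) and the scaffold gene Pdzk1 fell (-1.38 ± 0.20, adjusted p = 0.00141). Of 18 genes 5 rose and 6 fell, and 2 rose on leaving out control replicate 1 or 3 or YSJZD replicate 1 and 3 on leaving out control replicate 2 or cisplatin replicate 2. In the renin-angiotensin genes, renin Ren1 (-1.46 ± 0.32, adjusted p = 0.0112) and the renalase gene Rnls (-2.21 ± 0.37, adjusted p = 0.00281) fell, and angiotensinogen Agt rose to 307, 230.3 and 229 CPM from 107, 87.8 and 110.4 (1.33 ± 0.26, adjusted p = 0.00685). Cyp27b1 was not called without control replicate 1 or 3, cisplatin replicate 1, 2 or 3 or YSJZD replicate 1 or 3 (1.04 to 1.41, adjusted p from 0.0529 to 0.144). Cyp27b1 was at a log2 fold change of 2.16 without control replicate 2.

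**Figure D4:**
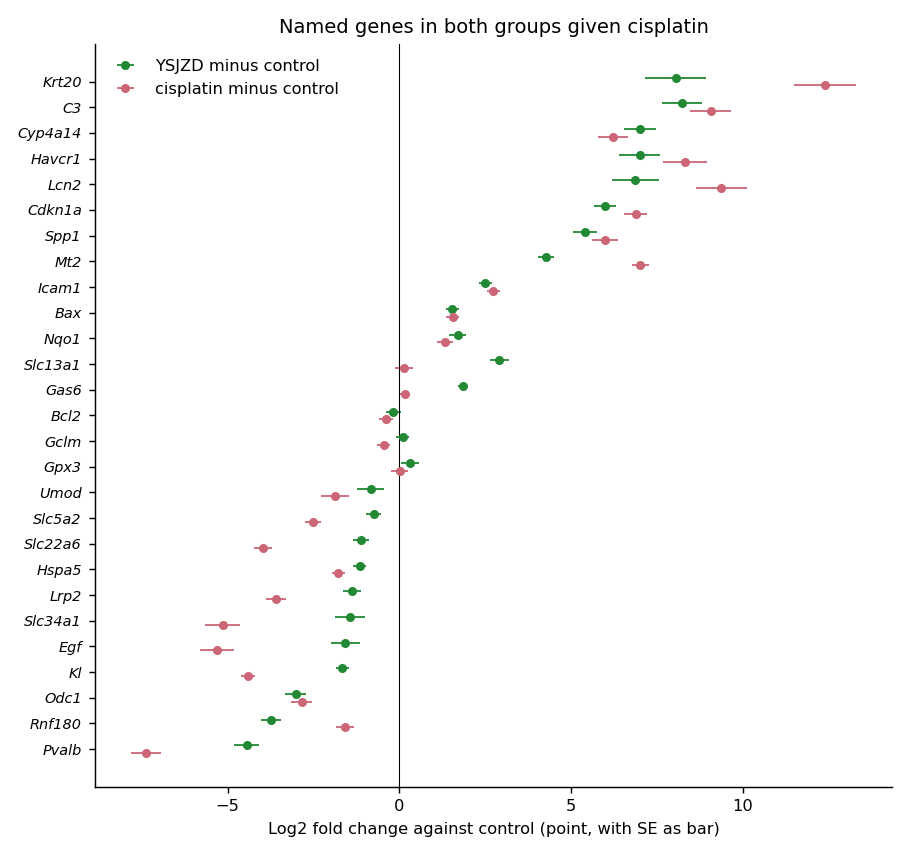
Log2 fold change against control (horizontal axis, point with SE as bar) of 27 named genes (rows) in the YSJZD and the cisplatin group, which share the control libraries. In the YSJZD group injury and p53 genes lie to the right of 0 and the transporter genes Slc34a1, Slc22a6 and Slc5a2 to the left, while Slc13a1 stands at 2.92 and Gas6 at 1.85.

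Many fasting genes driven by PPARA, the receptor that senses fatty acids, rose. The fatty acid hydroxylase Cyp4a14 (Entrez gene 13119) stood at 887, 1620.0 and 904 CPM against 6.48, 10.7 and 9.21 in control and 868, 768 and 353 with cisplatin (7.01 ± 0.46, adjusted p = 3.89e-05 against control, 0.78 ± 0.35, adjusted p = 0.106 against cisplatin). It was low in every control library, and its 3 YSJZD libraries were above the cisplatin libraries, by a difference that did not pass the test. A paralog of Cyp4a14, Cyp4a10 (Entrez gene 13117), stood at 1912, 2487 and 1744 CPM, above both 281, 348 and 297 in control and 572, 922 and 658 with cisplatin (2.73 ± 0.22, adjusted p = 6.83e-05 against control, 1.51 ± 0.21, adjusted p = 0.000725 against cisplatin), although reads between these paralogs are divided by the authors' counting. The lipase inhibitor gene Angptl4 (3.15 ± 0.20, adjusted p = 3.89e-05), the thioesterase gene Acot1 (2.00 ± 0.16, adjusted p = 6.75e-05) and the pyruvate dehydrogenase kinase gene Pdk4 (4.98 ± 0.45, adjusted p = 0.000109) rose. Of 31 such genes 20 rose and 5 fell, with a median of 2.00 against 1.29 with cisplatin. Against the cisplatin group 11 were higher and 5 lower. Pdk4 was at a log2 fold change of 4.38 without YSJZD replicate 2.

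Some genes of the citric acid cycle and the respiratory chain fell, in numbers that depended on the scaling, and those of fatty acid oxidation went both ways. Of 49 genes of fatty acid oxidation 9 rose and 14 fell, and the median of -0.16 turned to 0.03 with libraries scaled by totals, where 14 rose and 12 fell. Here 5 rose on leaving out control replicate 1 or YSJZD replicate 2, 3 on leaving out control replicate 2 and 4 on leaving out control replicate 3, and 29 were higher than with cisplatin. The racemase gene Amacr, which readies branched fatty acids, fell from 808, 698 and 769 to 86.6, 123 and 128 CPM (-2.75 ± 0.20, adjusted p = 3.99e-05), and the enoyl-CoA isomerase gene Eci1 rose (1.15 ± 0.15, adjusted p = 0.000846). Of 23 genes of the citric acid cycle 0 rose and 16 fell (median -0.58), and 6 fell on leaving out control replicate 1, 9 on leaving out control replicate 2 and 10 on leaving out YSJZD replicate 1 or 3. Ogdh, a dehydrogenase of the cycle, stood at 739, 740.0 and 695 CPM against 1175, 1048 and 1151 (-0.63 ± 0.13, adjusted p = 0.00747), and the genes Idh3g (-0.60 ± 0.12, adjusted p = 0.00894) and Pdhx (-0.62 ± 0.12, adjusted p = 0.00575) fell by a similar amount. Of 76 nuclear genes of the respiratory chain 0 rose and 22 fell (median -0.37), and 6 fell on leaving out control replicate 1, 10 on leaving out control replicate 2 and 12 on leaving out YSJZD replicate 3. With libraries scaled by totals 8 genes of the citric acid cycle (median -0.38) and 11 of the respiratory chain (median -0.18) fell. In both lists every called member had fallen, under either scaling. The complex I gene Ndufa10 (191, 187 and 186 CPM against 328, 299.6 and 291, -0.70 ± 0.11, adjusted p = 0.00225), the complex III gene Uqcrfs1 (-0.70 ± 0.14, adjusted p = 0.00862) and cytochrome c, Cycs (-0.92 ± 0.19, adjusted p = 0.00827), fell. Ndufa10 was higher than with cisplatin (0.52 ± 0.11, adjusted p = 0.00533), and Cycs was not called against it (-0.16 ± 0.19, adjusted p = 0.533).

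Several genes of sterol synthesis fell. Its enzymes are driven by SREBP factors through sterol elements, and the window of Hmgcs1 (chr13:119690101-119690400), the enzyme that makes HMG-CoA in the cytosol, holds 1 match to TCACNCCAC, in capitals, which 1.24% of the windows hold.
Hmgcs1: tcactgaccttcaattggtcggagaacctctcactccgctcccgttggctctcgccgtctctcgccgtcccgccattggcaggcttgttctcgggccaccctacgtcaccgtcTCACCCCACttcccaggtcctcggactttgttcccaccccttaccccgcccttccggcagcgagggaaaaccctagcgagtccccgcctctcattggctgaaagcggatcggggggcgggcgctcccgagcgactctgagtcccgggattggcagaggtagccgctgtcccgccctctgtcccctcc
Hmgcs1 (Entrez gene 208715) stood at 177, 380.0 and 377 CPM in the YSJZD libraries against 828, 856 and 827 in control and 88.2, 94.995 and 116 with cisplatin. YSJZD replicate 1 was the lowest of its group, and no libraries of the 3 groups overlapped (-1.43 ± 0.26, adjusted p = 0.00457 against control, 1.64 ± 0.26, adjusted p = 0.00131 against cisplatin). The demethylase gene Cyp51 (-1.97 ± 0.24, adjusted p = 0.000575), the mevalonate enzyme genes Mvd (-1.38 ± 0.17, adjusted p = 0.00068) and Idi1 (-3.11 ± 0.46, adjusted p = 0.00161) and the dehydrogenase gene Nsdhl (-1.16 ± 0.15, adjusted p = 0.000804) fell. Of 25 genes 1 rose and 11 fell (median -0.43), and 11 were higher than with cisplatin.

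Many chaperone genes of the endoplasmic reticulum fell. BiP, encoded by Hspa5 (Entrez gene 14828), the main chaperone of the endoplasmic reticulum, stood at 450.0, 415 and 554 CPM against 1195, 1116 and 843 in control and 338, 262 and 324 with cisplatin (-1.15 ± 0.18, adjusted p = 0.00243 against control, 0.62 ± 0.18, adjusted p = 0.0241 against cisplatin). Edem1 (-1.23 ± 0.14, adjusted p = 0.000372) and Sel1l (-0.97 ± 0.11, adjusted p = 0.000388), which act in the removal of misfolded proteins, fell and were not called against cisplatin (-0.05 ± 0.14, adjusted p = 0.801 and 0.30 ± 0.11, adjusted p = 0.0549). Of 24 such genes 0 rose and 14 fell (median -0.68), and 8 fell on leaving out control replicate 1. The cytosolic heat shock genes Hsph1 (-1.69 ± 0.20, adjusted p = 0.000514) and Dnaja1 (-1.51 ± 0.23, adjusted p = 0.00202) fell. In gluconeogenesis, pyruvate carboxylase Pcx fell (-0.73 ± 0.13, adjusted p = 0.00397) and the phosphatase gene Fbp2 rose from 12.3, 18.0 and 9.34 to 127, 59.6 and 88.2 CPM (2.79 ± 0.32, adjusted p = 0.000396).

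**Figure D5:**
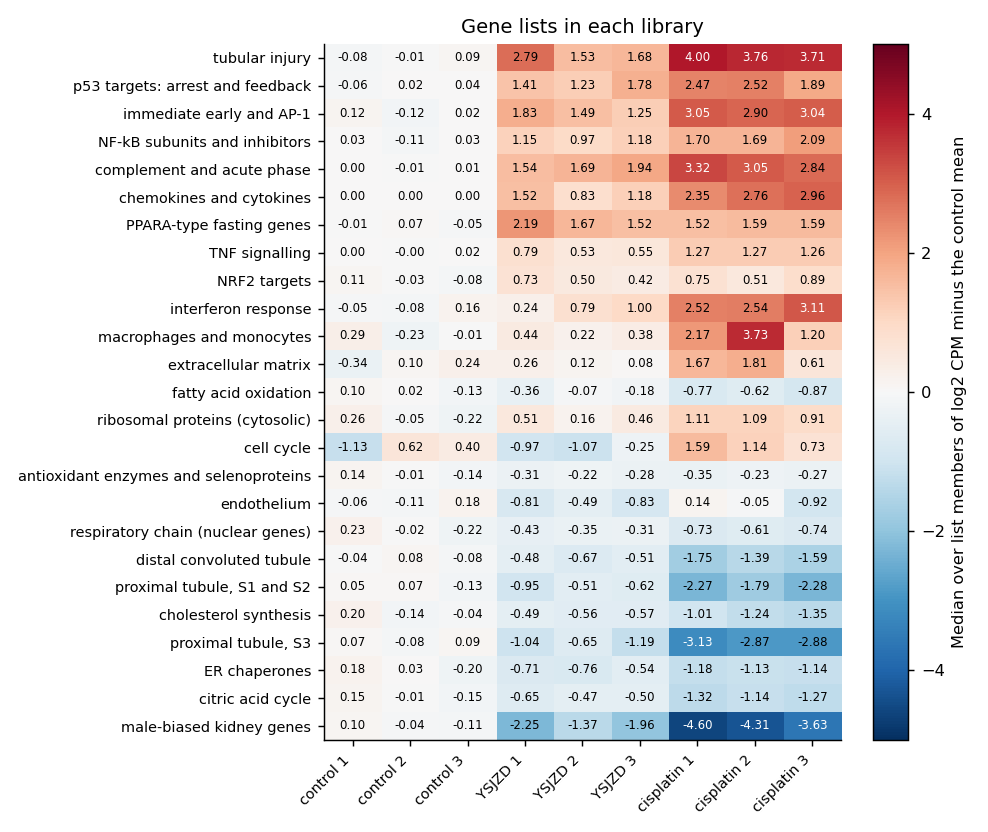
Median over the tested members of 25 gene lists (rows) of log2 CPM minus the mean of the control libraries, in each of the 9 libraries (columns), with the value written in each cell. Tubular injury stands at 1.53 to 2.79 in the YSJZD libraries and the cell cycle list at -1.13 in control replicate 1 against 0.62 and 0.40 in the other control libraries.

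Cell cycle genes stood below control in the median (-0.97) with few calls, 0 higher and 2 lower of 53. The control libraries differed among themselves, with control replicate 1 at a median of -1.13 against 0.62 and 0.40, and 15 fell without control replicate 1 and 6 without YSJZD replicate 3. The proliferation marker Mki67 stood at 1.69, 2.95 and 7.65 CPM against 2.69, 20.6 and 12.6 in control and 20.7, 21.1 and 14.4 with cisplatin (-1.54 ± 0.66, adjusted p = 0.135 against control, -2.19 ± 0.67, adjusted p = 0.028 against cisplatin). The replication gene Mcm10 fell (-1.75 ± 0.30, adjusted p = 0.00319) and was lower than with cisplatin (-1.47 ± 0.29, adjusted p = 0.00422). Against cisplatin 40 of the list were lower.

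Of 45 matrix genes 8 rose and 2 fell (median 0.14, with cisplatin 1.51), and 28 were lower than with cisplatin. The share called against control, 22.2%, was near the 19.3% of all tested genes. The membrane protease gene Mmp14 (1.48 ± 0.19, adjusted p = 0.000839) and tissue plasminogen activator Plat (1.202 ± 0.18, adjusted p = 0.00162) rose, and the basement membrane collagen gene Col4a4 fell (-0.86 ± 0.13, adjusted p = 0.00161). Of 24 endothelial markers 1 rose and 6 fell (median -0.78, with cisplatin -0.19), and 1 fell on leaving out control replicate 1 or YSJZD replicate 3, 2 on leaving out control replicate 3 or YSJZD replicate 1 and 15 on leaving out cisplatin replicate 3. With libraries scaled by totals 2 rose and 2 fell. The growth factor binding gene Igfbp5 fell (-1.83 ± 0.29, adjusted p = 0.00217), and the vessel receptor gene Kdr fell from 53.3, 47.0 and 51.5 to 22.1, 16.5 and 18.0 CPM (-1.42 ± 0.34, adjusted p = 0.0152). The co-receptor gene Nrp1 rose (1.39 ± 0.14, adjusted p = 0.00024). Ribosomal protein genes made up 2.17% to 2.79% of counts in the YSJZD libraries, 1.55% to 1.94% in control and 3.61% to 4.47% with cisplatin. Of 81 tested, 10 rose and 1 fell (median 0.39), 53 rose with libraries scaled by totals, and 17 rose on leaving out control replicate 1, 2 on leaving out control replicate 2, 3 on leaving out control replicate 3, 5 on leaving out YSJZD replicate 1, 18 on leaving out YSJZD replicate 2 and 4 on leaving out YSJZD replicate 3. Kdr was not called without control replicate 1 or YSJZD replicate 2 or 3 (-1.39 to -1.33, adjusted p from 0.0517 to 0.0543).

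The genes furthest below control included genes of red cells and of the tubule, and others such as Fhit and Cntnap5a. The haemoglobin gene Hba-a1 (Entrez gene 15122), which has a near-identical copy, stood at 0.642, 1.12 and 0.712 CPM against 329.9, 200.3 and 589 in control and 1.25, 0.913 and 1.06 with cisplatin (-8.82 ± 0.48, adjusted p = 1.59e-05 against control, -0.39 ± 0.52, adjusted p = 0.587 against cisplatin). The erythroid haem synthesis gene Alas2 stood at 0.175, 0 and 0.119 CPM against 6.99, 3.93 and 14.6. Erythroid markers summed to 235 to 683 CPM in control, 14.7 to 24.0 in the YSJZD group and 3.48 to 4.77 with cisplatin. Hba-a1 and Alas2 made up only a small part of the YSJZD sums. The list also holds Slc4a1, which stands in the intercalated cell list too, so these sums do not measure red cells alone. Fhit, a hydrolase gene on a fragile site, went from 534 counts over the control libraries to 1, a ratio of 618 (95% exact counting interval 110.4 to 24437), and the cisplatin libraries stood at 0.217, 0.171 and 0.0621 CPM. Cntnap5a (Entrez gene 636808), a contactin-associated protein gene, went from 455 counts to 1, a ratio of 526 (95% exact counting interval 94.0 to 20828), and stood at 0.380, 0.400 and 0.186 CPM with cisplatin. The methyltransferase gene Inmt stood at 4.50, 52.3 and 11.9 CPM against 914, 698 and 565 (-4.99 ± 0.78, adjusted p = 0.00217). The phosphodiesterase gene Pde6a (-5.05 ± 0.48, adjusted p = 0.000146), Eddm3b (-4.45 ± 0.51, adjusted p = 0.000406) and the collagen gene Col19a1 (-4.25 ± 0.52, adjusted p = 0.0006) also fell. The single YSJZD count of Fhit and of Cntnap5a was in YSJZD replicate 2. Alas2 was at a log2 fold change of -5.66 without control replicate 3 and -6.93 without YSJZD replicate 1. Inmt was at a log2 fold change of -6.47 without YSJZD replicate 2. Eddm3b was at a log2 fold change of -5.12 without YSJZD replicate 2.

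Among genes whose mean reached 10 CPM in any group and that were called in the same direction against both control and cisplatin, a few with large changes against both were chosen for that, and their values are a description. The sulfate transporter Slc13a1 (Entrez gene 55961) of the proximal tubule stood at 2112, 2135 and 2194 CPM in the YSJZD libraries, 281, 352 and 219.5 in control and 199, 319 and 423 with cisplatin. Growth arrest protein Gas6 (Entrez gene 14456), a ligand of the receptors that clear dying cells, stood at 1023, 961 and 1073, 297, 289 and 262 and 289, 333 and 321 CPM in that order. The potassium channel partner Kcnip2 stood at 14.8, 13.3 and 14.1, 0.800, 0.801 and 0.795 and 4.23, 5.37 and 2.23 CPM. These 3 genes were evenly high over the YSJZD libraries (2.92 ± 0.28, 1.85 ± 0.13 and 4.13 ± 0.34 against control). The acute-phase gene Saa4 (3.86 ± 0.54), the prolactin receptor gene Prlr (2.15 ± 0.48) and the tryptophan-pathway gene Kynu (1.91 ± 0.60) were also among the higher genes. On the lower side, the ubiquitin ligase gene Rnf180 stood at 1.63, 1.31 and 1.48 CPM against 19.0, 20.3 and 20.1 in control and 4.18, 6.68 and 9.19 with cisplatin. The fatty acid carrier Fabp5 (-2.03 ± 0.62), the membrane protein gene Ctxn3 (-2.79 ± 0.79) and Cntnap5a were also among the lower genes. Ctxn3 stood at 1.63, 3.48 and 1.48 CPM against 3.35, 24.9 and 17.2 in control, so its YSJZD and control libraries overlapped. Prlr was not called without control replicate 1 (1.93). Prlr was at a log2 fold change of 3.05 without control replicate 2. Kynu was not called without control replicate 1 or 3, cisplatin replicate 2 or YSJZD replicate 2 or 3 (1.48 to 1.91). Kynu was at a log2 fold change of 2.69 without control replicate 2. Fabp5 was not called without control replicate 1, 2 or 3, cisplatin replicate 1 or YSJZD replicate 1, 2 or 3 (-2.24 to -1.79). Ctxn3 was not called without control replicate 2 or 3 or YSJZD replicate 1 or 3 (-2.69 to -2.23).

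Iron and lipid peroxidation genes went both ways, with 6 of 23 higher and 3 lower than control. The called share was 39.1%, beside 19.3% of all tested genes. The transferrin receptor gene Tfrc, the main entry of iron, fell from 141, 143 and 158 to 27.6, 45.01 and 37.8 CPM (-2.00 ± 0.18, adjusted p = 0.000108) and was not called against cisplatin (0.23 ± 0.17, adjusted p = 0.334). Its relative Tfr2, which senses iron, rose from 0.364, 0.146 and 0.265 to 1.69, 3.02 and 3.44 CPM and stood at 0.108, 0.228 and 0.434 with cisplatin (3.36 ± 0.55, adjusted p = 0.00269 against control, 3.39 ± 0.54, adjusted p = 0.00127 against cisplatin). Tfr2 was thus low in both other groups. Acsl4, which loads membranes with the fatty acids that peroxidise, rose from 29.2, 41.7 and 29.4 to 99.9, 118 and 138 CPM (1.83 ± 0.30, adjusted p = 0.00284) and stood at 199, 269 and 478 with cisplatin.

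Genes of the stress and glucocorticoid responses rose in part. Of 31 genes of the integrated stress response and serine synthesis 13 rose and 1 fell (median 0.61), and 8 rose on leaving out control replicate 1 or 2. The serine synthesis gene Psat1 rose from 55.9, 39.997 and 32.9 to 162, 177 and 105 CPM (1.78 ± 0.26, adjusted p = 0.00142), and the mitochondrial serine enzyme gene Shmt2 fell from 465, 368 and 385 to 138, 165 and 211 CPM (-1.24 ± 0.18, adjusted p = 0.00161). Shmt2 was nonetheless higher than with cisplatin, at 61.1, 79.6 and 65.4 CPM. The phosphatase subunit gene Ppp1r15a, which ends the stress response, rose (1.11 ± 0.17, adjusted p = 0.00175). Of 18 glucocorticoid response genes 9 rose and 1 fell (median 1.00), and Mt1, Mt2, Pdk4 and Lcn2 belong to that list too. The clock gene Per1, also a glucocorticoid target, rose from 25.1, 33.7 and 29.2 to 68.5, 93.0 and 69.6 CPM and stood at 133, 147 and 114 with cisplatin (1.39 ± 0.17, adjusted p = 0.000636 against control, -0.77 ± 0.17, adjusted p = 0.00652 against cisplatin). Of 20 clock genes 3 rose and 1 fell, a called share of 20.0% near the 19.3% of all tested genes, and 1 rose on leaving out YSJZD replicate 3.

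Among growth factor genes of epithelial repair 1 of 21 rose and 2 fell, a called share of 14.3% beside 19.3% of all tested genes. With libraries scaled by totals 7 rose and 2 fell, and with 1 library left out 0 to 4 rose, 4 without cisplatin replicate 3 and 0 without any 1 control library or without YSJZD replicate 2 or 3. The receptor gene Met of hepatocyte growth factor stood at 82.0, 99.6 and 105 CPM against 258, 238 and 282 in control and 114, 82.5 and 90.9 with cisplatin (-1.44 ± 0.16, adjusted p = 0.000351 against control, -0.004 ± 0.16, adjusted p = 0.987 against cisplatin). Igf1, insulin-like growth factor, fell from 5.60, 8.45 and 10.5 to 1.34, 2.95 and 2.25 CPM (-1.91 ± 0.38, adjusted p = 0.00688). For both the YSJZD libraries overlapped the cisplatin libraries, which held 1.25, 2.17 and 1.37 CPM of Igf1. Of 19 genes of fatty acid synthesis 1 rose and 7 fell, and 4 fell on leaving out control replicate 1 or YSJZD replicate 3. The desaturase gene Fads2 (-0.97 ± 0.13, adjusted p = 0.000745) and acetyl-CoA carboxylase Acaca (-0.88 ± 0.14, adjusted p = 0.00223) were among those that fell. In glycolysis the lactate carrier gene Slc16a1 rose from 56.5, 28.3 and 46.0 to 135, 159 and 93.0 CPM (1.56 ± 0.26, adjusted p = 0.00281), while 4 genes of 26 rose and 1 fell, and 2 rose on leaving out control replicate 1 or 2. The called share of 19.2% was near that of all tested genes. The median of that list was -0.02, and 0.17 with libraries scaled by totals. Of 39 proteasome genes 2 rose and 2 fell, a called share of 10.3% below the 19.3% of all tested genes. The activator genes Psme1 (0.83 ± 0.19, adjusted p = 0.0133) and Psme2 (0.78 ± 0.14, adjusted p = 0.00486) were those that rose. With libraries scaled by totals 4 proteasome genes rose and 0 fell. Psme1 was not called without control replicate 2 or 3 (0.77 to 0.78, adjusted p from 0.0524 to 0.0576).

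The remaining cell types of the cortex gave few calls. Of 19 podocyte genes 1 rose and 2 fell, and their summed level was 571 to 679.9 CPM against 604 to 658 in control. Cd2ap, a slit diaphragm adaptor also expressed in tubules, was the one that rose (196, 224 and 202 CPM against 65.0, 95.5 and 79.3, 1.37 ± 0.20, adjusted p = 0.00161). Of 18 genes of principal cells, which take up sodium and water in the collecting duct, 1 rose and 0 fell. Of 20 genes of the acid and base secreting intercalated cells 1 rose and 2 fell. Against cisplatin 10 intercalated cell genes were higher and 1 lower, 5 principal cell genes higher and 2 lower, and 2 podocyte genes higher and 4 lower. Of all tested genes 17.4% were higher and 18.0% lower than with cisplatin. Genes of the inner medulla and urothelium summed to 158 to 279 CPM against 321 to 566 in control and 353 to 429 with cisplatin. The aldose reductase gene Akr1b3, which makes the osmolyte sorbitol, fell from 197, 193 and 271 to 59.6, 57.9 and 47.2 CPM (-2.00 ± 0.19, adjusted p = 0.000149), the only call of 10 tested. Akr1b3 alone made up a large part of the control sums, so the difference in sums rests largely on this gene. The share of medulla in each sample was not tested.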

How the data were processed

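RNA of kidney cortex was sequenced in 9 libraries. The authors deposited expected counts per transcript, and the submitters' processing notes name RSEM 1.3.1, DESeq2 1.4.5 and GRCh38, a human build. For the mouse build and the aligner, a name was not given in the sources used here. The expected counts of 58075 transcripts were summed to 17963 genes and rounded to whole numbers. Genes with low counts were left out with edgeR's filterByExpr, which kept 13954. They were tested with edgeR 4.0.16 (R 4.3.3, quasi-likelihood, TMM scaling) over all 9 libraries with 3 group means and no block, and p-values were adjusted by Benjamini-Hochberg over all tested genes. The same code was tested on simulated data. Alternatives used DESeq2 1.42.0, limma 3.58.1 (voom), other scalings and filters, only the 6 libraries compared, a replicate block, and each library left out. Ratios of genes with 1 to 3 counts in a group carry a 95% exact interval that covers counting error only. Promoters came from RefSeq tables. Named genes were the 10 highest and 10 lowest called genes that reached 10 CPM in control or YSJZD without overlap. Up to 4 members of each list by smallest p and a fixed set whatever its result were added. Up to 6 genes each way called in the same direction against both other groups were named too, whether or not libraries overlapped. A few genes that this rule names are not reported here. The members and the 59 lists were chosen with earlier results of these data known.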

Additional observations from a re-analysis of the deposited data

How the results depend on the processing

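The 2694 genes called against control became 2685 with DESeq2's size factors in edgeR, 3174 with library totals, 2546 without a filter, 2571 with at least 5 CPM in 3 libraries, 3382 with DESeq2, 2438 with limma-voom and 3022 with only the 6 libraries compared. With library totals 2394 were higher and 780 lower. Leaving out 1 library gave 1607 to 3138 genes, 823 to 1594 higher and 784 to 1544 lower, with the lowest values without control replicate 1. The number lower was 848 without control replicate 2 and 851 without YSJZD replicate 3. Of 185 named genes called against control, 165 kept call and direction in every alternative that tested them, and none of the 185 reversed. Low genes were filtered out of some alternatives, such as that with at least 5 CPM in 3 libraries. Among uncalled genes, Bcl2 turned to 0.0177 with library totals and ranged from -0.33 to 0.0146 with 1 library left out, highest without YSJZD replicate 1. Hdc turned to 1.55 with limma-voom, 0.60 with the replicate block, and ranged from -1.24 to 4.74 with 1 library left out, highest without control replicate 2, where it was called (adjusted p = 0.0345 in edgeR). The labels do not say that replicate numbers pair the samples. Same-number correlations between YSJZD and control libraries were 0.09, 0.07 and -0.08, and those of different numbers ran from -0.20 to 0.18. So few values cannot show whether samples were paired. With the replicate block 2367 genes were called. At a floor of 3 counts over a group, levels under 0.0705 CPM in control and 0.0609 CPM in the YSJZD group were not detectable.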

Other observations

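In YSJZD replicate 2 the lipoprotein gene Apob stood at 536 CPM, against 112 and 75.0 in the other YSJZD libraries and 60.4 to 89.0 in control. The lipid droplet gene Cidec stood at 6.42 CPM in YSJZD replicate 1 and at 0.722 and 0.356 in the other YSJZD libraries. The haemoglobin gene Hbb-bs stood at 190, 50.9 and 0 CPM in the control libraries, while Hba-a1 stood at 330, 200 and 589.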
